A study of Mus musculus and Rattus norvegicus with 21 samples.

Results

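The 9 genes described here are the Nkx homeobox genes Nkx2-2, Nkx2-3, Nkx2-4, Nkx2-5, Nkx2-6, Nkx2-9, Nkx3-2, Nkx6-1 and Nkx6-2, that is, members of the NK family of transcription factor genes other than Nkx2-1, which encodes the thyroid factor NKX2.1. They were taken by name, with earlier results of these data known, from the 21000 mouse protein-coding genes that have a curated RefSeq transcript on the mm10 build. The study mapped protein-DNA contacts and histone marks by chromatin immunoprecipitation and sequencing (ChIP-Seq). The files used were 10 lists of peaks from mouse thyroid gland, with 1 library per group. In 8 of them, H3K27me3 and H3K4me3 were mapped in thyroid glands of wild-type (WT) C57BL/6 mice and of mice carrying the allele B6.Glis3<tm2(mCherry)Amj> (Glis3KO), each on a normal diet (ND, NIH-31) and on a low-iodide diet (LID, TD.95125). In the remaining 2, NKX2.1 and PAX8 were mapped in WT thyroid on LID.

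All of these mice are labelled 1 month old. For the factor libraries the study's methods describe older mice whose GLIS3 protein is fused to EGFP, kept for longer on LID, and for the knockout they give the allele number tm3 in place of tm2, so the source of the factor libraries and the allele are uncertain. GLIS3 is a zinc finger transcription factor needed for thyroid hormone synthesis, and LID raises the pituitary hormone TSH. The sources used here do not say how many animals were pooled in a library. With 1 library per group, differences between genotypes or diets are given as values and were not tested.

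Nkx genes encode homeodomain proteins that set cell identity in the embryo. Nkx2-2, Nkx2-9, Nkx6-1 and Nkx6-2 pattern the ventral neural tube, and Nkx2-2 and Nkx6-1 also act in insulin-producing cells. Nkx2-3, Nkx2-5, Nkx2-6 and Nkx3-2 act in spleen and gut mesoderm, heart, pharyngeal pouches and the axial skeleton, respectively. Nkx2-4 is the closest relative of Nkx2-1 and is known from the hypothalamus. In cells that do not use such genes, Polycomb repressive complexes place H3K27me3 over them, often as a wide domain. H3K4me3 is found at start sites that are active or kept ready for use, and start sites that carry both marks are called bivalent.

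The H3K27me3 list of Glis3KO LID stood apart from the others and touches most results below. It held 18040 peaks covering 55.11 Mb, against 2631 to 4116 peaks and 7.47 to 13.26 Mb in the other 3 H3K27me3 lists. The 4 H3K4me3 lists held 15692 to 17044 peaks. The lists hold positions only, with no score or read count, so the read depth behind each peak is unknown and covered length is the finest measure available. At the start sites of the thyroid factor genes Nkx2-1, Pax8, Foxe1, Hhex and Glis3, H3K4me3 was found for 5 of 5 in every library, and of 10 follicular cell markers 9, 9, 7 and 9 were marked. Here and throughout, a run of 4 values gives ND first (WT, then Glis3KO) and then LID (WT, then Glis3KO). Tg, the thyroglobulin gene, singled out after its values were seen, was without H3K4me3 at its start site in both WT libraries (0, 1056, 0 and 1091 bp covered). H3K4me3 at the start site of Glis3 (1337, 1548, 1311 and 1356 bp) was found in both genotypes and so does not check the knockout. H3K4me3 marked 6, 5, 7 and 7 of 8 endothelial markers, 3, 4, 4 and 2 of 8 fibroblast markers, 0 of 8 immune markers in every library, 0, 0, 1 and 0 of 8 skeletal muscle markers, 4, 4, 5 and 3 of 10 C cell and neuroendocrine markers, and 1, 2, 2 and 2 of 5 parathyroid markers. The share of each cell type in the glands, and its part in the results, was not tested. In whole tissue, fewer cells carrying a mark and less of the mark per cell cannot be told apart, and 2 marks at a site need not lie in the same cell.

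The member genes are short, from 1470 bp (Nkx2-4) to 8857 bp (Nkx2-2), and their start sites lie mostly alone. For 8 of the 9, no other protein-coding gene started within 50 kb, which held for 27.9% of all protein-coding genes. Nkx2-2 (chr2:147177546-147186402) and Nkx2-4 (chr2:147083876-147085345) lie on the minus strand of the same chromosome. The others are Nkx2-6 (chr14:69171802-69175540, plus strand), Nkx2-3 (chr19:43612325-43615892, plus strand), Nkx2-5 (chr17:26838665-26841565, minus strand), Nkx2-9 (chr12:56611393-56613284, minus strand), Nkx3-2 (chr5:41761483-41764220, minus strand), Nkx6-1 (chr5:101659184-101664711, minus strand) and Nkx6-2 (chr7:139579376-139582797, minus strand).

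Promoter sequences of 300 bases (250 before and 50 after the start site) were matched for 8 of the 9 members in the RefSeq table for GRCm38.p6, the assembly also named mm10. They held more CG dinucleotides than most promoters, with a median of 21 (range 9 to 40) against a median of 7 over all 32851 promoters of the table. The share of those promoters with fewer CG ran from 54.2% for Nkx2-5 to 96.1% for Nkx6-1. The densest were those of Nkx6-1 (40), Nkx2-4 (38) and Nkx6-2 (32), followed by Nkx3-2 (25), Nkx2-2 (17), Nkx2-3 (15), Nkx2-9 (15) and Nkx2-5 (9). The 250 bases before the start site are shown for 3 members whose histone marks differed, with each CG in capitals and read in the direction of transcription. Nkx6-1 carried both marks in every library, Nkx2-5 carried H3K27me3 alone at its start site, and the marks of Nkx2-2 varied between libraries.
Nkx6-1 (chr5:101664712-101664961, minus strand): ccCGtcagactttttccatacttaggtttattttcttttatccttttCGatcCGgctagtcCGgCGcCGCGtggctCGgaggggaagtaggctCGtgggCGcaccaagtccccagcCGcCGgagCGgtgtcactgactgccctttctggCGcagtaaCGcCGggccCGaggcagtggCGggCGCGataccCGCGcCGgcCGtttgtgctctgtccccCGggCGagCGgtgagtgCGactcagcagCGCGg
Nkx2-5 (chr17:26841566-26841815, minus strand): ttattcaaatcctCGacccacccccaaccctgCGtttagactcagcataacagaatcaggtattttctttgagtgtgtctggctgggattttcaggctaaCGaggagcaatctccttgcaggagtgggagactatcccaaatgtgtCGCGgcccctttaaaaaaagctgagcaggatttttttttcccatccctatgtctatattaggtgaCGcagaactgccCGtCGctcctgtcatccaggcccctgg
Nkx2-2 (chr2:147186403-147186652, minus strand): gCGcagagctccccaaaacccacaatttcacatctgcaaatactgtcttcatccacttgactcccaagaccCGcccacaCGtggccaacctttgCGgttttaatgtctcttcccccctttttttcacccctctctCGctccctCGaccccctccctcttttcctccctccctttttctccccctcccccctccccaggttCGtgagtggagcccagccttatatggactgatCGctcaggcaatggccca
These stretches hold 30, 8 and 8 CG, respectively.

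H3K27me3 lay within 1 kb of a start site of 7, 8, 6 and 9 of the 9 genes. Over all protein-coding genes the same rule marked 6.44%, 8.68%, 6.5% and 17.5%. Nkx2-3, Nkx2-4, Nkx2-5, Nkx3-2, Nkx6-1 and Nkx6-2 were marked in all 4 libraries, which held for 4.18% of all genes. Without the Glis3KO LID library the same count was 6 of 9 against 4.19%. The remaining 3 genes were marked in some libraries only: Nkx2-6 lacked the mark in WT LID, Nkx2-9 lacked it in both WT libraries, and Nkx2-2 had it at the start site in Glis3KO LID alone. Without that library 8 of the 9 genes had the mark in at least 1 library, against 10.4% of all genes.

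**Figure D1:**
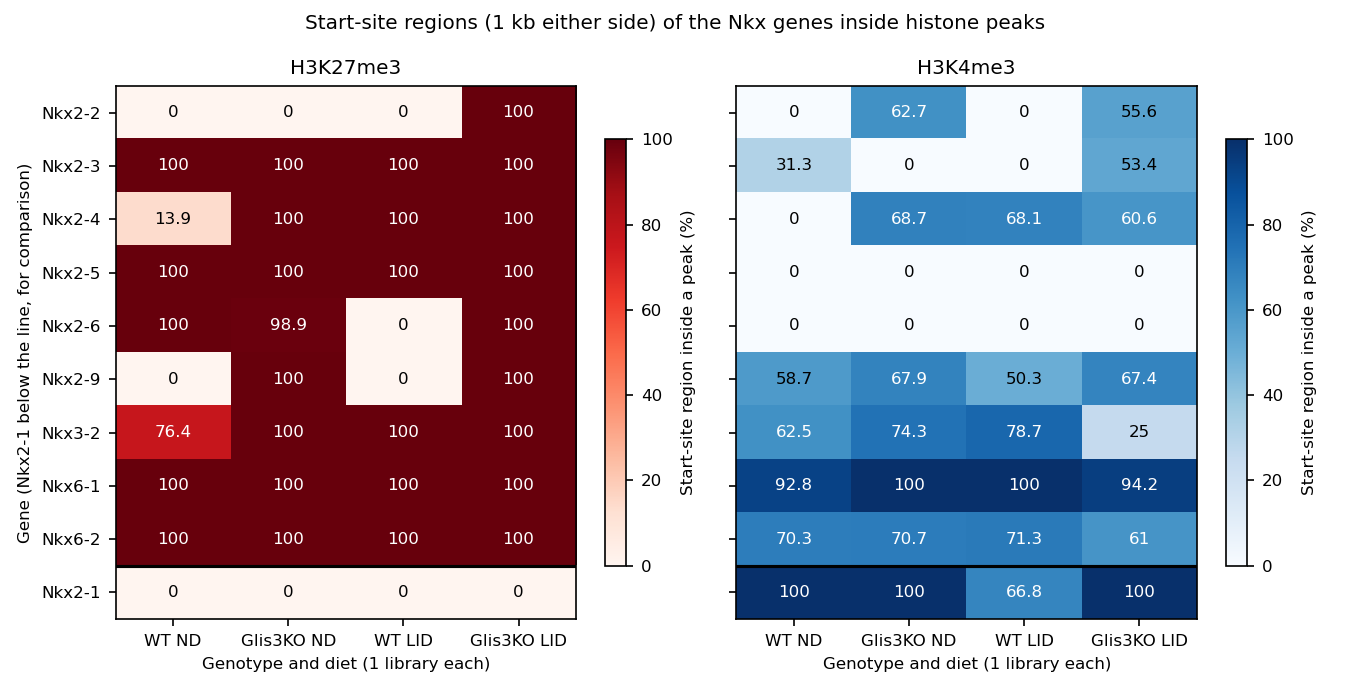
Percent of the region 1 kb either side of the start sites that lay inside H3K27me3 peaks (left) and H3K4me3 peaks (right), for the 9 genes and, below the line, Nkx2-1, with 1 library per column. Nkx2-3, Nkx2-5, Nkx6-1 and Nkx6-2 are at 100 for H3K27me3 in all 4 libraries, and Nkx2-1 is at 0 for H3K27me3 and at 66.8 to 100 for H3K4me3.

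H3K4me3 was less uniform. It marked the start sites of 5, 6, 5 and 7 of the 9 genes, against 62.2%, 62.5%, 63% and 60.1% of all protein-coding genes, so these shares were near the background. Nkx2-9, Nkx3-2, Nkx6-1 and Nkx6-2 had it in all 4 libraries (56.6% of all genes), and Nkx2-5 and Nkx2-6 had it in none. Both marks at the start sites of a gene were found for 4, 5, 4 and 7 members, where the background was 5.02%, 6.56%, 5.21% and 10.7%. Nkx3-2, Nkx6-1 and Nkx6-2 had both marks in every library. The marks also overlapped in position there: at Nkx6-1, 1856, 2001, 2001 and 1885 bp of the 2001 bp region lay in peaks of both at once.

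**Figure D2:**
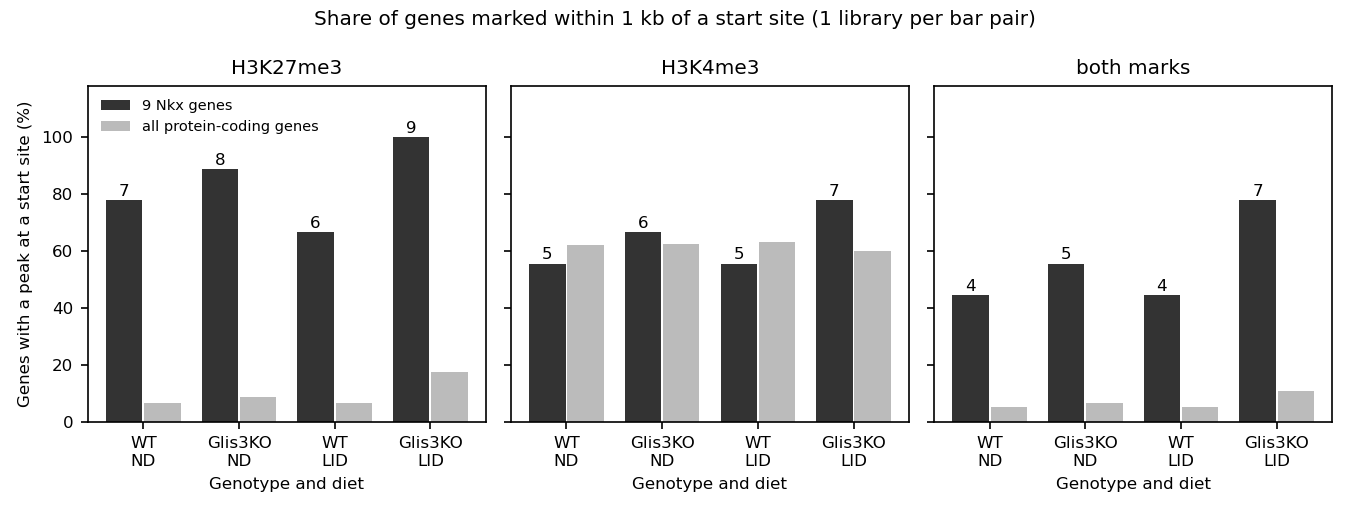
Percent of genes with a peak within 1 kb of a start site, for the 9 Nkx genes (dark bars, with the number of genes above) and for all 21000 protein-coding genes (grey bars), by genotype and diet, 1 library per pair of bars. The dark bars stand far above the grey ones for H3K27me3 and for both marks, and near them for H3K4me3.

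Nkx2-1 itself, the relative that the thyroid uses, differed at its start site from the 6 members marked by H3K27me3 in all 4 libraries. Nkx2-9 was like Nkx2-1 in WT, with 0 bp of H3K27me3 and 1174 (ND) and 1007 bp (LID) of H3K4me3. At Nkx2-1, H3K4me3 covered 2001, 2001, 1337 and 2001 bp of the start-site region and H3K27me3 covered 0 bp of it in all 4 libraries. In Glis3KO LID a peak of 2135 bp lay further into the gene and covered 42.9% of it, and in the other 3 libraries no H3K27me3 touched Nkx2-1. Among Nkx genes outside the 9, Nkx1-1 had H3K27me3 over the whole 2001 bp region in all 4 libraries, with 1705, 1040, 2001 and 975 bp of H3K4me3. Nkx1-2 had 939, 2001, 2001 and 2001 bp of H3K27me3, and Nkx6-3 had 0, 0, 0 and 2001 bp. At Nkx6-3, H3K4me3 was absent from the start-site region in every library but covered 885, 1217, 1309 and 1364 bp of the gene.

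Among the genes that pattern the neural tube, Nkx6-1, which in the embryo marks progenitors of motor neurons and later insulin-producing cells, was inside an H3K27me3 domain of 10753, 14448, 16410 and 24256 bp. It was narrowest in WT ND and widest in Glis3KO LID. Its H3K4me3 peak spanned the start site in every library, from position -855 to 1733 relative to it in WT ND, and was 2589, 2737, 2688 and 2019 bp wide. The whole Nkx6-1 gene of 5528 bp lay inside H3K27me3 in all 4 libraries.

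Nkx6-2, which acts beside Nkx6-1 in the neural tube and in myelin-forming cells, had a similar pair of marks. Its H3K27me3 peak was 8487, 11671, 9295 and 13239 bp wide, and H3K4me3 covered 1406, 1415, 1427 and 1220 bp of the start-site region. The H3K4me3 values differed little, with Glis3KO LID lowest.

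Nkx2-9, a gene of the floor of the neural tube, differed between genotypes on both diets. H3K27me3 covered 0 bp of its start-site region in WT ND, 2001 bp in Glis3KO ND, 0 bp in WT LID and 2001 bp in Glis3KO LID. The peaks in the Glis3KO libraries were 6033 and 7681 bp wide and enclosed the gene, and no H3K27me3 peak touched the gene in either WT library. H3K4me3 was present in all 4, at 1174, 1358, 1007 and 1349 bp. Thus both marks were found in the Glis3KO libraries and H3K4me3 alone in the WT libraries, a difference seen in 1 library of each genotype on each diet and not tested.

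Nkx2-2, a factor of ventral neural progenitors, oligodendrocytes and islet cells, had H3K27me3 at its start site only in Glis3KO LID, where a peak of 16642 bp ran from position -9560 to 7081 relative to the start site. The other libraries held smaller H3K27me3 peaks inside the gene, of 1001 bp in Glis3KO ND and 1255 bp in WT LID, and none in WT ND. H3K4me3 covered 0, 1254, 0 and 1113 bp of the start-site region, so it was seen there in the Glis3KO libraries and in neither WT library. Downstream, in all 4 libraries, an H3K4me3 peak covered the start of the long noncoding RNA Nkx2-2os, 2319 bp past the Nkx2-2 start site. In the WT libraries that peak began at positions 1496 (ND) and 1171 (LID), past the start site, and in the Glis3KO libraries at positions -253 and -112, before it.

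A further H3K4me3 peak, 3112, 2588, 2697 and 2198 bp wide, lay upstream of Nkx2-2 in every library. It covered start sites of predicted Nkx2-2 transcripts, at positions -7856 and -8142 among others, so whether Nkx2-2 counts as marked in WT depends on the annotation. With predicted transcripts included, 7 in place of 5 members had H3K4me3 in WT ND, Nkx2-2 and Nkx2-5 being added, and 6 in place of 5 had it in WT LID. PAX8 peaks with midpoints 7013 and 8543 bp upstream lay in this H3K4me3 in all 4 libraries.

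**Figure D3:**
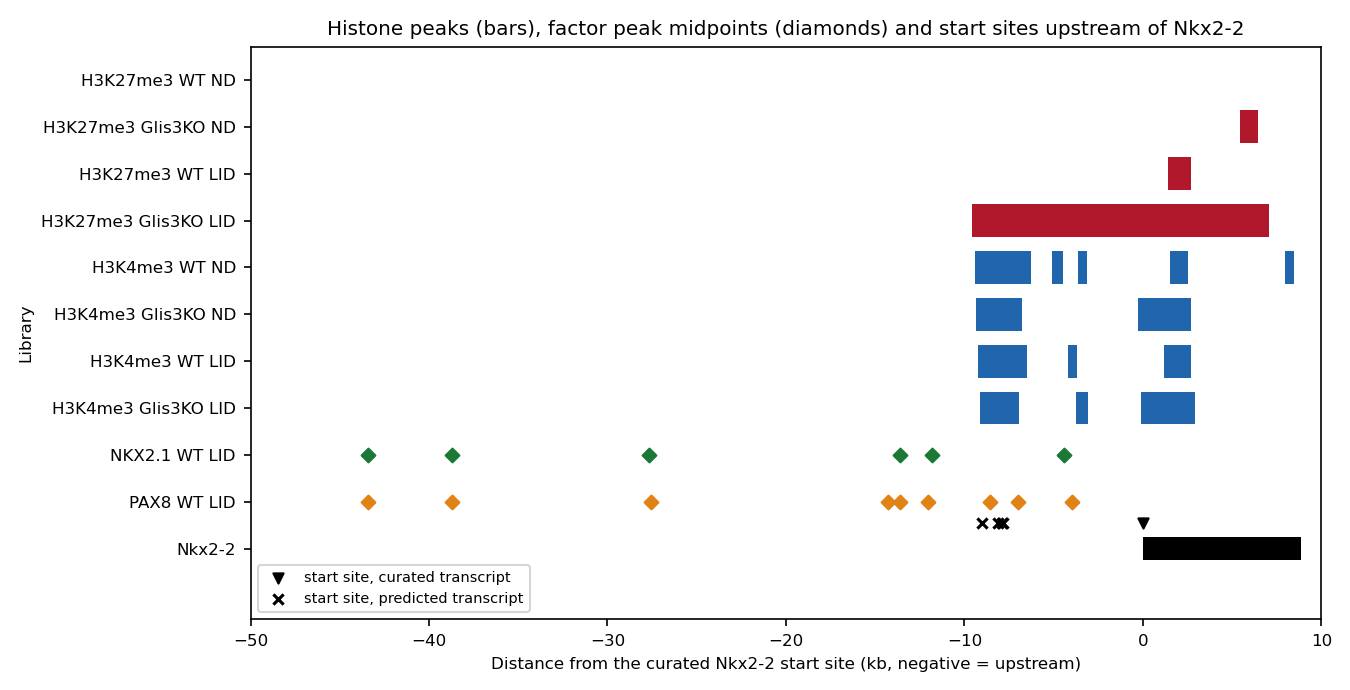
Peaks from 50 kb upstream to 10 kb downstream of the curated Nkx2-2 start site (x axis, distance in kb), with a row for each histone library (bars), for NKX2.1 and for PAX8 (diamonds at peak midpoints), and for the gene with its curated and predicted start sites. The upstream H3K4me3 block is present in all 4 libraries, and the H3K27me3 domain over the start site is present in Glis3KO LID alone.

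Of the genes of heart, gut and skeleton, Nkx2-3, needed for spleen and gut-associated vessels, had the widest H3K27me3 domain of the 9 genes in all 4 libraries, at 15882, 28563, 24665 and 32384 bp. In WT LID only 4 of the 2631 H3K27me3 peaks, this one included, were at least as wide. H3K4me3 at its start site was found in WT ND (626 bp) and Glis3KO LID (1068 bp) and in neither Glis3KO ND nor WT LID. In Glis3KO ND, WT LID and Glis3KO LID a separate H3K4me3 peak of 911, 1677 and 2100 bp lay further into the gene, starting 1951, 1817 and 1948 bp past the start site.

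Nkx2-5, the early heart factor, lay inside H3K27me3 domains of 8951, 25389, 17564 and 29302 bp. H3K4me3 covered 0 bp of its start-site region in each library. It was seen within the gene at 903, 501, 501 and 0 bp, where 501 bp is the narrowest H3K4me3 peak in any list. All 4 libraries also held an H3K4me3 peak upstream of the gene, 1178, 1414, 1079 and 818 bp wide, between positions -9631 and -7987. It lay inside the same H3K27me3 domain as the gene in 3 libraries. In WT ND it lay inside a separate H3K27me3 peak of 8051 bp, so there the stretch was called in pieces and the width over the gene came out smaller.

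Nkx2-6, expressed in the pharyngeal pouches and the outflow tract of the heart, was covered by H3K27me3 at its start sites over 2151, 2127, 0 and 2151 bp of a 2151 bp region. The WT LID library was the one without the mark there. H3K4me3 avoided its start sites in every library and lay instead over the downstream part of the gene, in peaks of 885, 1261, 1211 and 994 bp that began 2422 to 2744 bp past the start site.

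Nkx3-2, a factor of vertebrae and jaw joint, had both marks at its start site throughout. Its H3K27me3 peak was 4605, 13929, 5083 and 24990 bp wide, wider in each Glis3KO library than in the WT library of the same diet. The WT libraries held separate peaks nearby, as at positions -3663 to -2125 (ND) and -4260 to -3260 (LID). Those in WT were thus called in pieces, as at Nkx2-5, which makes the width over the gene smaller. Of the gene with 5 kb either side, H3K27me3 covered 48.2%, 91.1%, 47.8% and 95.3%. H3K4me3 covered 1251, 1486, 1574 and 501 bp. Glis3KO LID thus held both the widest H3K27me3 domain and the narrowest H3K4me3 peak. Both were common in that library beside WT LID. The H3K27me3 peak was wider for 98.4% of genes marked in both, and H3K4me3 covered less for 66.4% of genes with that mark.

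Nkx2-4, the hypothalamic relative, was covered by H3K27me3 over 278 bp of the start-site region in WT ND and over all 2001 bp in the other 3 libraries. The WT ND value came from a peak of 1001 bp, the narrowest width in the H3K27me3 lists, between positions 723 and 1723. H3K4me3 covered 0, 1375, 1362 and 1212 bp, so WT ND lacked this mark altogether. ChIP-Seq has no strand, and a mark near a start site that Nkx genes share with another transcript cannot be given to either. Predicted or curated long noncoding RNAs begin at position -194 of Nkx2-4 (Gm34889), 41 bp past the start site of Nkx2-6 (1700092C10Rik) and 9 bp past that of Nkx6-2 (Gm33031). The same holds at positions 363 and -792 of Nkx2-9 (Gm26973) and at -269 and -631 of Nkx2-3 (Gm20467).

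**Figure D4:**
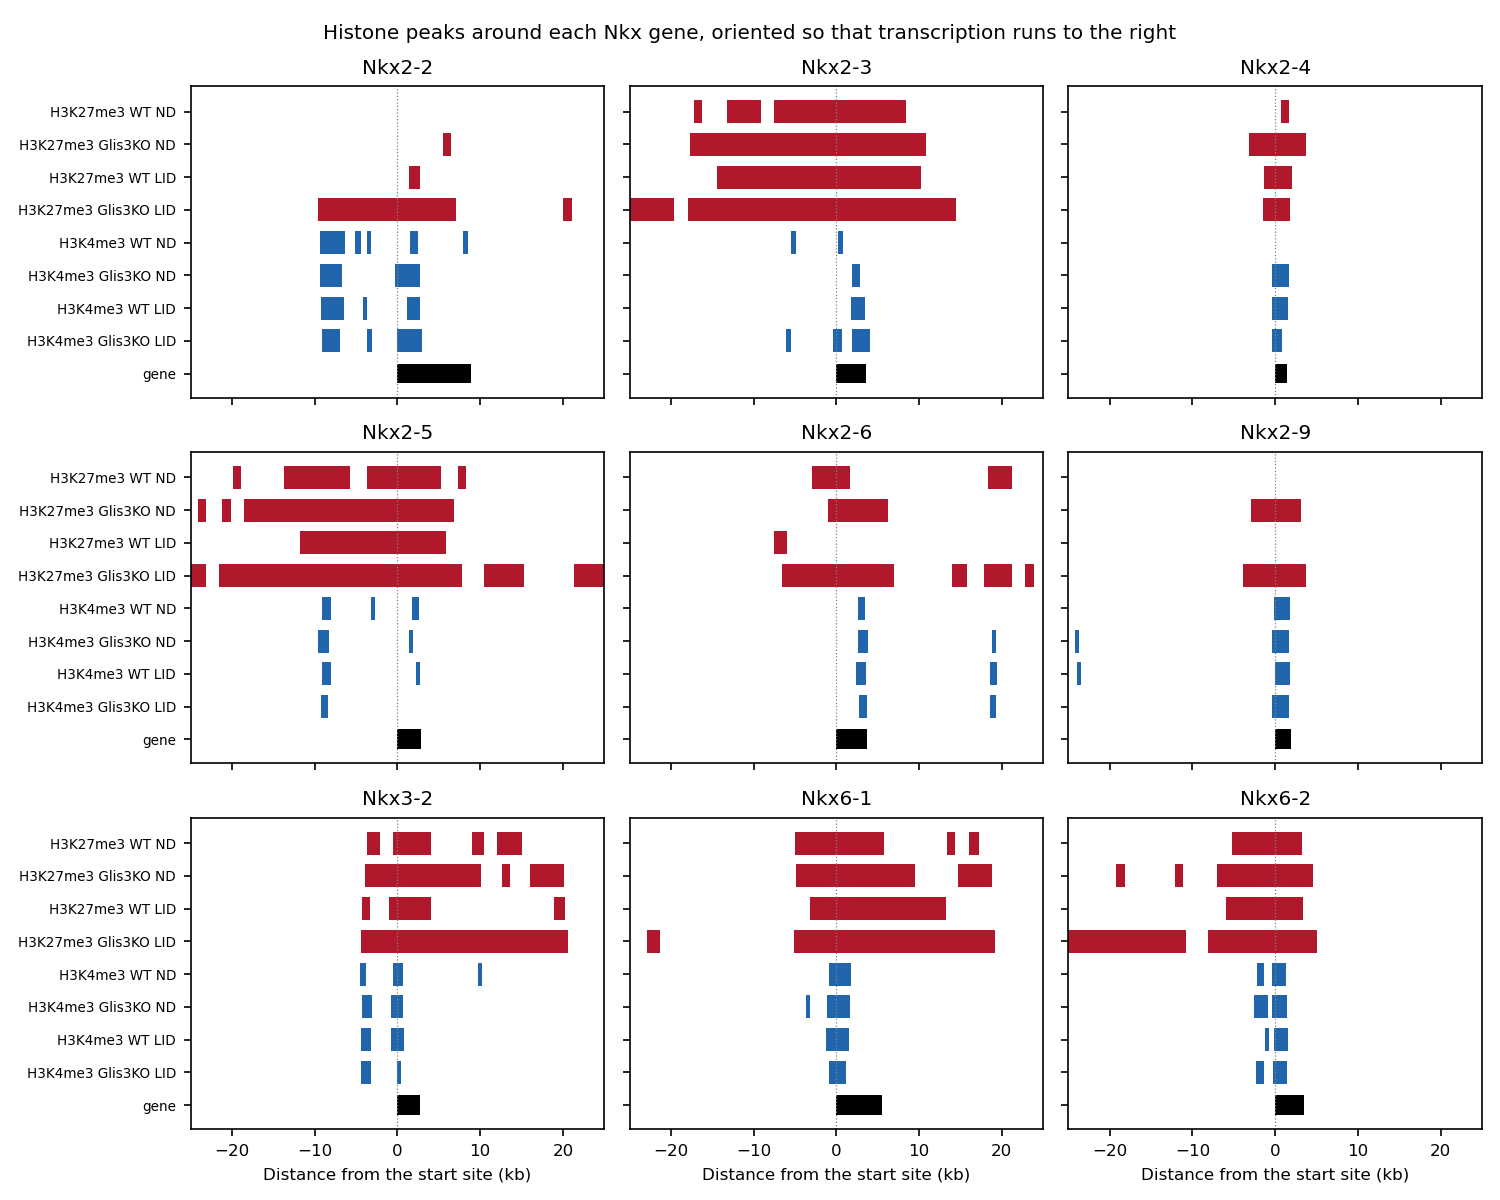
Peaks of H3K27me3 (red) and H3K4me3 (blue) within 25 kb of the start site of each of the 9 genes, with distance in kb on the x axis, a row for each library and the gene as a black bar. Red domains extend well past most genes, blue peaks sit at the start sites of Nkx2-9, Nkx3-2, Nkx6-1 and Nkx6-2, and at Nkx2-6 they sit over the downstream part of the gene.

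H3K4me3 away from the start site recurred among the members. A gene with an H3K4me3 peak over its body but none within 1 kb of a start site was counted 3, 3, 4 and 1 times among the 9, against 2.31%, 1.93%, 2.25% and 2.1% of all protein-coding genes. Nkx2-6 met this rule in all 4 libraries, Nkx2-5 in 3, and Nkx2-2 and Nkx2-3 in 2 each. With the region widened to 2.5 kb either side, H3K4me3 was counted at 8, 9, 9 and 7 of the 9 genes, against 63.2%, 63.4%, 63.9% and 61.1% of all genes.

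The H3K27me3 domains usually exceeded the genes. The whole gene from start to end lay inside H3K27me3 for 4, 8, 5 and 8 members, with 0.586%, 1.06%, 0.633% and 2.42% of all genes doing so; short genes pass this rule more easily. Median peak widths in the lists were 1363, 1765, 1661 and 1517 bp, and all member peaks at start sites other than that of Nkx2-4 in WT ND were wider than the median of their library. These medians cover all peaks of a list, while the widest peak touching a start-site region was taken for each gene. Wide peaks are favoured by that choice, and the same share was not counted for other genes.

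Between libraries, the peak at the start site was wider in Glis3KO ND than in WT ND for 7 of the 7 members marked in both. Among all genes marked in both, 82.2% were wider. The median ratio of widths was 1.8 for the members and 1.42 for all such genes. It was wider in Glis3KO LID than in WT LID for 5 of 6 members (98.4% of all genes), with a median ratio of 1.45 against 2.73, the exception being Nkx2-4 (3418 and 3290 bp). The members' counts in these comparisons were therefore close to the shares over all genes.

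Within WT, the peak was wider on LID than on ND for 6 of 6 members, while 51.2% of all genes marked in both were wider on LID. The median ratio was 1.54 for the members and 1.01 for all genes. The WT LID list held fewer H3K27me3 peaks than that of WT ND (2631 and 3050). Its median peak was wider (1661 and 1363 bp), with similar coverage (7.5 and 7.47 Mb). Within Glis3KO, LID exceeded ND for 7 of 8 members (94.9% of all genes), with median ratios of 1.21 and 1.97. The domains were called as regions, and where a stretch is joined or split its width changes, as at Nkx2-5 and Nkx3-2. These 4 comparisons share libraries and are not independent of each other, and each sets 1 library against another.

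NKX2.1 and PAX8 sites around the genes were described from the midpoints of their peaks, each set to 300 bp by the authors. The lists hold 46636 NKX2.1 and 51586 PAX8 peaks, and whether the authors filtered them further for their own analysis is not known here, so the counts and shares that follow hold for the lists as deposited. NKX2.1 peaks lay within 50 kb of a start site for 8 of the 9 genes, all but Nkx3-2, and 75.3% of all genes met this rule. PAX8 peaks did so for 8 of 9, all but Nkx6-1, against 77.3%. The members had 22 NKX2.1 and 30 PAX8 peaks within that distance. Their median per gene, 2 for NKX2.1 and 3 for PAX8, equalled the median over all genes, so at this distance the members were like genes in general. Some of these peaks lay in introns of other genes, as near Nkx6-2, or nearer to another start site. The NKX2.1 peak near Nkx2-5, at 46658 bp, lay 13828 bp from another gene's start site. When each peak counted for its nearest start site only, 7 members (54.2% of all genes) kept NKX2.1 and 8 (57.7%) kept PAX8.

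Nearer to the start sites the counts of the factors were less alike. Within 5 kb, NKX2.1 was found at 1 of the 9 genes (35% of all genes) and PAX8 at 6 of 9 (41.7%). The 6 genes with PAX8 were Nkx2-2, Nkx2-3, Nkx2-5, Nkx2-6, Nkx2-9 and Nkx3-2, at 3975, 299, 3158, 3304, 105 and 2408 bp from the nearest start site. In Nkx2-9 and Nkx3-2, and at 2288 bp in Nkx2-3 and 3304 bp in Nkx2-6, the PAX8 peak lay in an exon of the gene. The gene with NKX2.1 within 5 kb was Nkx2-2, at 4410 bp upstream. Within 20 kb, NKX2.1 was found at 4 of the 9 genes (58.9% of all genes) and PAX8 at 6 (62.8%). With only 9 genes, whether any of these counts differs from the share over all genes was not tested.

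Nkx2-2 had the most sites, with 6 NKX2.1 and 9 PAX8 peaks, all upstream and in intergenic sequence. In 5 places peaks of both factors overlapped, with NKX2.1 midpoints 11797, 13622, 27654, 38732 and 43445 bp upstream. Of the place at 38732 bp, 92.7% of the bases are marked as repeats in the reference genome, and reads from such sequence can be hard to place. Overlap with the other factor was found for 11 of the 22 NKX2.1 peaks near the members (50.8% of all NKX2.1 peaks) and for 11 of the 30 PAX8 peaks (45.9% of all PAX8 peaks).

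**Figure D5:**
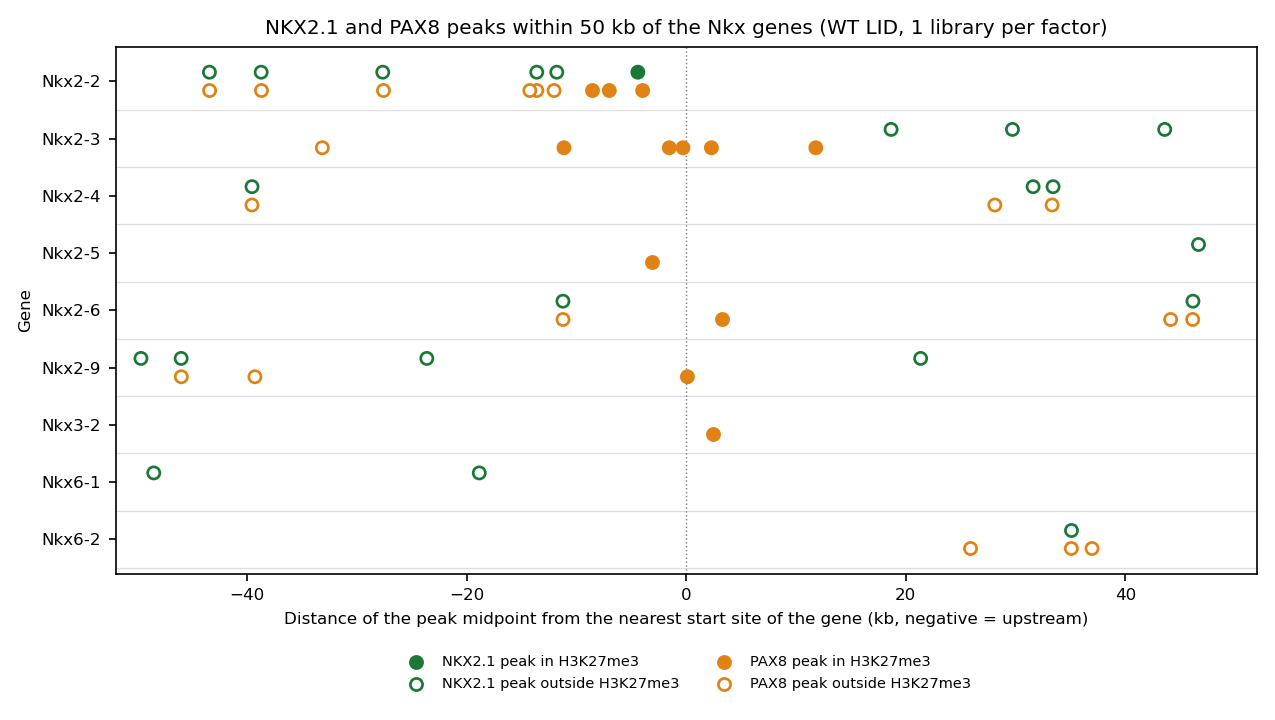
Midpoints of NKX2.1 peaks (green, upper row of each gene) and PAX8 peaks (orange, lower row) within 50 kb of each gene's start site, by distance in kb. Filled points lay in an H3K27me3 peak of at least 1 of the 4 libraries, and 12 of 30 PAX8 points and 1 of 22 NKX2.1 points are filled.

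Some of the PAX8 peaks near the members lay in H3K27me3 domains, and the NKX2.1 peaks almost never did. Of the 30 PAX8 peaks, 6, 8, 6 and 12 overlapped H3K27me3 in the 4 libraries, and over all PAX8 peaks the shares were 0.582%, 0.917%, 0.585% and 2.92%. Of the 22 NKX2.1 peaks, 0, 0, 0 and 1 did, where the shares over all NKX2.1 peaks were 0.184%, 0.259%, 0.157% and 1.54%. For so few peaks, these NKX2.1 counts were near those shares. Apart from Nkx2-2, the nearest NKX2.1 peak lay 11237 bp (Nkx2-6) to 63065 bp (Nkx3-2) from a start site. The contrast with PAX8 thus partly restates the result within 5 kb. The members lie in H3K27me3, so sites near them have more chance to fall into it than sites in general. None of the 12 PAX8 peaks in the Glis3KO LID domains overlapped an NKX2.1 peak. Among all PAX8 peaks in H3K27me3 of that library, 17.8% did. Without the Glis3KO LID library, 8 PAX8 peaks and 0 NKX2.1 peaks near the members lay in H3K27me3.

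These PAX8 sites also differed in H3K4me3 and in base composition. Of the 12 PAX8 peaks in H3K27me3, 8 also lay in an H3K4me3 peak of at least 1 library, and of the 18 outside H3K27me3, 0 did. Over all PAX8 peaks the shares were 48.7% inside H3K27me3 and 15.4% outside, so a higher share inside was found for PAX8 peaks in general. These counts pool libraries, so both marks need not come from the same library. The PAX8 list is from WT LID, where 6 of the 30 peaks lay in H3K27me3. Among those 6, only the peak 2288 bp past the Nkx2-3 start site also lay in WT LID H3K4me3. The peak 3975 bp upstream of Nkx2-2 had H3K27me3 in Glis3KO LID alone and H3K4me3 in WT LID alone. In the genes themselves, the PAX8 peaks in exons of Nkx2-6 and Nkx2-9 overlapped H3K4me3 in all 4 libraries, that in Nkx2-3 did so in 3, and that in Nkx3-2 in none. The median number of CG in the 300 bases was 18.5 (range 1 to 39) for the 12 and 2.5 (0 to 6) for the 18. Over all PAX8 peaks the medians were 9.5 for the 1536 in H3K27me3 of any library and 4 for the 50032 outside. The part of CG content in where PAX8 peaks were called was not tested.

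Short letter patterns were searched on both strands, CAAGTG as a core of NKX sites and GTCANGC as a core of PAX sites; matches to both may share letters at a site. CAAGTG was found in 32.4% of all NKX2.1 peaks, 26.7% of all PAX8 peaks and 13.6% of all promoters, each 300 bases long. GTCANGC was found in 12.9%, 19.8% and 10.7% of them. Of the 12 PAX8 peaks in H3K27me3 near the members, 2 held GTCANGC and 3 held CAAGTG, and of the 18 outside, 2 and 4 did. Of the NKX2.1 peaks, 9 of 22 held CAAGTG and 2 of 22 held GTCANGC. These matches describe letters only.

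Of the sites, 3 are shown, read in the direction of the nearest member's transcription. The PAX8 peak closest to the Nkx2-3 start site (midpoint 299 bp upstream) lay in H3K27me3 in all 4 libraries, held neither pattern, and is printed with its 13 CG in capitals.
Nkx2-3 PAX8 (chr19:43611877-43612176, plus strand): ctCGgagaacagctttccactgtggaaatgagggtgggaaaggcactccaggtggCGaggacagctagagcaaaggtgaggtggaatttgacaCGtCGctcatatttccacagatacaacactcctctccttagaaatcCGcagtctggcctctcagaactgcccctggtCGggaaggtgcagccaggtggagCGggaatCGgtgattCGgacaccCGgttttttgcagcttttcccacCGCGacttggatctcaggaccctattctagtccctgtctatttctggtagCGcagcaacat
The NKX2.1 peak 4410 bp upstream of Nkx2-2 was the nearest NKX2.1 site to any member and the only one in H3K27me3, in Glis3KO LID. Its single CAAGTG, here as the reverse complement, is in capitals.
Nkx2-2 NKX2.1 (chr2:147190663-147190962, minus strand): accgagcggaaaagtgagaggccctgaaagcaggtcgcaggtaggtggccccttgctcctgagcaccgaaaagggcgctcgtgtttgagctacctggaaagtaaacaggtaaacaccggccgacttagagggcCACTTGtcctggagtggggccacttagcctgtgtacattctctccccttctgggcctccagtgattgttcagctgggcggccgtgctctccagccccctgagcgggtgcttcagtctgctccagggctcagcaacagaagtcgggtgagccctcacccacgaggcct
The shared site 39566 bp upstream of Nkx2-4 lay outside every histone peak, held 0 CG, and again had 1 match to CAAGTG as the reverse complement.
Nkx2-4 NKX2.1 and PAX8 (chr2:147124762-147125061, minus strand): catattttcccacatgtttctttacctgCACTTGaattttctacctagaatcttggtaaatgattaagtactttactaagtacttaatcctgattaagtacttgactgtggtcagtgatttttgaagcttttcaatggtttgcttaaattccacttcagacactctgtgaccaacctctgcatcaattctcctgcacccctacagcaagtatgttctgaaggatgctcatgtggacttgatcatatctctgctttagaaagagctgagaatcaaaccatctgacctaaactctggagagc

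Lists of genes that work with the members in the embryo were counted by the same rule. H3K27me3 marked 6, 11, 10 and 12 of 12 neural tube patterning partners, such as Pax6 and Olig2, and 6, 9, 8 and 12 of 12 islet factors, such as Pdx1 and Neurod1. It marked 4, 8, 7 and 10 of 10 cardiac factors, such as Gata4 and Tbx5, and 4, 7, 5 and 10 of 10 factors of somite, skeleton and gut. In these lists WT ND was always the lowest library and Glis3KO LID the highest. For the 9 Nkx genes WT LID was the lowest. H3K27me3 marked 0 of 12 housekeeping genes in every library, where H3K4me3 marked 12 of 12. Of the thyroid factor genes it marked Foxe1 alone, in Glis3KO ND, and of 10 follicular cell markers 2, 0, 0 and 4.

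Genes whose coverage at start sites over the 8 histone libraries was nearest to that of each member were found by Euclidean distance in percentage points, a description of likeness only. Nkx6-1 was nearest to Pou3f2 (4.86), Irx5 (6.33) and Plxnc1 (7.9), and Nkx6-2 to Kcnj4 (6.56), Dscaml1 (8.16) and Coch (11.2). Nkx2-2 was nearest to Ptprz1 (6.8), with Trpc6 (22.2) and Cxcl2 (31.3) further off. Nkx2-6 was nearest to Minar1 (8.47), Cacng6 (10.2) and Etv2 (12.4). Nkx2-5 had the same values as 15 other genes, Acta1, Evx1 and Foxb1 among them, being fully covered by H3K27me3 and free of H3K4me3 in every library. For Nkx2-3 (Ucn, 20.2, Lhx8, 22.6, and Lbx1, 24), Nkx2-4 (Hoxb5, 15.4, and Foxa2, 25), Nkx2-9 (Fbn1, 20.6, Bhlhe22, 22.4, and 2810459M11Rik, 23.1) and Nkx3-2 (Zfp536, 17.4, Clmp, 25.7, and Rpp25, 26) the nearest genes were less alike.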

How the data were processed

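Thyroid ChIP-Seq libraries were analysed as the peak positions that the authors deposited, with no values attached. Per the study's methods and the submitters' processing notes, single-end reads were trimmed with cutadapt 1.12, mapped to mm10 with Bowtie 1.2 (unique hits only), freed of duplicates with Picard 1.110, and peaks were called per library with HOMER 4.10.3. Factor peaks were called against input and set to 300 bp; H3K4me3 and H3K27me3 were called as regions of variable width, and the sources used here do not say whether an input was used for these. Wide regions can merge or split with depth, which is unknown.

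Covered bases, counts and distances were computed in Python 3.11.15 (pandas 2.3.3, NumPy 2.4.6, pysam 0.24.0) on GRCm38.p6 RefSeq annotation, whose build is that of the files. A gene counted as marked if any peak shared at least 1 bp with the 1 kb on each side of a curated start site. The arithmetic was tested on simulated intervals. Lists of the union of peaks, the rat PCCl3 cell lists and the inputs were not used. The genes named are the 9 members, other Nkx genes, and the 3 most alike genes for each member, except that some results are not reported here; other lists are given as counts with examples. The members and lists were chosen with earlier results of these data known. Alternatives covered the flank, the overlap, the widest peaks, predicted transcripts and the factor windows; leaving out the Glis3KO LID library was added after seeing the data.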

Additional observations from a re-analysis of the deposited data

Results flagged for a closer look

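For 6 of the members the difference in covered start-site bases between Glis3KO and WT had opposite signs on ND and on LID. Each value sets 1 library against another, so the difference between diets was not tested. For H3K4me3 it was found at 5 of the 7 members marked in at least 1 library, against 42.5% of all genes so marked, and for H3K27me3 at 1 of 9, against 10.2%. H3K4me3 covered fewer start-site bases in Glis3KO LID than in WT LID at 4 of the 7 members and at 66.4% of all such genes, so lower values in that library were common.

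For H3K4me3 this was seen at 5 genes, given as Glis3KO minus WT in bp. At Nkx2-3 the difference was -626 on ND and 1068 on LID. At Nkx2-4 it was 1375 on ND and -150 on LID, and at Nkx3-2 it was 235 and -1073. At Nkx6-1 (145 and -116) and Nkx6-2 (9 and -207) the differences were small beside the 2001 bp of the region. For H3K27me3 it was seen at Nkx2-6, with -24 on ND and 2151 on LID. On ND both libraries were near full coverage (WT 2151 and Glis3KO 2127 bp of 2151 bp), so the opposite sign there rests on a small value.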

How the results depend on the processing

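Of 75 alternatives tried on the counts of members, 66 stayed within 1.5 times the reported count. With 2.5 kb either side of the start site, H3K4me3 was counted at 8 members in WT ND and 9 in WT LID (5 in each as reported), and both marks at 8 in Glis3KO ND and 7 in WT LID, where 7.31% and 5.75% of all genes had both (5 and 4 members as reported); the peaks gained lay over the genes, past the start sites. With windows of 5 kb and 20 kb, NKX2.1 was counted at 1 and 4 members in place of 8, and at 35% and 58.9% in place of 75.3% of all genes. Only peaks shared by both factors left 5 members for NKX2.1 and 5 for PAX8, with 58.4% of all genes. Without the Glis3KO LID library, 0 in place of 1 NKX2.1 peaks near the members lay in H3K27me3. When each H3K27me3 list was limited to its 2631 widest peaks, the counts were 7, 8, 6 and 8, Nkx2-4 being lost in Glis3KO LID, against 6.05%, 7.55%, 6.5% and 7.5% of all genes. Adding 5 kb to either side of the genes changed the percent covered in 62 of 72 cases, with no replicate spread to set it against. Depth is unknown, and with 1 library per group no value has a replicate error. No paired analysis was possible because no result here comes from a test; the Glis3KO and WT libraries of each diet were compared as values.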
